A study of Mus musculus with 4 samples.

Results

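Expression of 10 genes of the S100A and annexin families, S100a1, S100a4, S100a6, S100a10, S100a11, S100a13, S100a16, Anxa1, Anxa2 and Anxa5, was examined among the 22609 gene symbols counted in mouse hippocampus after global cerebral ischemia (GCI). The genes were chosen by symbol, with earlier results of these data known, and S100a10 was included with its partner Anxa2. The data were 4 RNA-Seq libraries, 2 from FLOX+GCI mice and 2 from FBN-ARO-KO+GCI mice. FBN-ARO-KO mice carry a conditional deletion of Cyp19a1, which encodes the estradiol-forming enzyme aromatase. The deletion depends on Cre driven by the CaMKIIα promoter, which is active in forebrain excitatory neurons, so aromatase of other cells is not targeted, and FLOX mice served as controls. All mice of both genotypes were adult, age-matched, ovariectomized females that had lost their ovaries 1 week earlier, underwent 20 min of bilateral common carotid artery occlusion and were sampled at 24 h of reperfusion. No library without ischemia was analyzed here, so every difference given below is one between genotypes after GCI and not a response to ischemia.

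S100 proteins are small calcium-binding proteins of the EF-hand type that change shape when calcium binds and then attach to target proteins, whereas annexins bind acidic phospholipids of membranes in a calcium-dependent manner. Members of both families pair with each other, and the best known pair is S100A10 with annexin A2, a complex that links the plasma membrane to the cytoskeleton and holds plasminogen and tissue plasminogen activator at the cell surface. In the brain many of these genes are expressed more in astrocytes, vascular cells, meningeal cells and microglia than in neurons, and several are known to be induced in reactive glia after injury.

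All 10 genes had a lower fitted level in FBN-ARO-KO+GCI than in FLOX+GCI, but none of them passed the test for genotype over all genes. The median log2 fold change of the 10 genes (FBN-ARO-KO+GCI minus FLOX+GCI throughout) was -0.43, against -0.01 over the 14527 genes tested, of which 51.3% were lower. In 6 of the 10 genes both FBN-ARO-KO+GCI libraries lay below both FLOX+GCI libraries, a pattern that held for 25.8% of all genes tested. Because the genes were chosen with earlier results of these data known, these contrasts with all genes are descriptive and not independent evidence. With edgeR's quasi-likelihood test and Benjamini-Hochberg adjustment at 0.05, 0 of the 10 genes were called, against 2 genes, or 0.0138%, of all tested. At an unadjusted p under 0.05, 3 of the 10 (S100a1, S100a16 and Anxa2) were lower and 0 were higher, against 7.82% of all genes that were lower at that limit. Both values depended on single libraries and on GC content and length. The median ranged from -0.67 to -0.16 and the count from 1 to 6 with each library left out in turn (largest without FLOX+GCI replicate 1, smallest without FLOX+GCI replicate 2), and a correction for GC content and length gave -0.23 and 1. The RNA is from whole hippocampus, where fewer cells of a type and less RNA per cell cannot be told apart.

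Total counts assigned to genes were 24774433 and 24333396 in the FLOX+GCI libraries, against 33076795 and 30114003 in those of FBN-ARO-KO+GCI. CPM below are counts scaled by library total and TMM factor, and 3 counts corresponded to between 0.0907 and 0.123 CPM. The sources used here say that samples were run in duplicate and do not say whether the libraries of a group came from separate mice, and the p-values measure only the spread between these libraries. Counts of Cyp19a1 were 4 and 1 in the FLOX+GCI libraries and 2 each in FBN-ARO-KO+GCI, too few in either genotype to check the deletion. Xist had at least 8223 counts and 4 Y-linked genes had 0 counts in every library, as the label of female mice requires. The summed CPM of 7 neuron markers, between 11375 and 12299 in the 4 libraries, and of 7 astrocyte markers, between 5002 and 6095, fit the label of brain tissue.

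Anxa2 had the most negative log2 fold change of the 10 genes with all 4 libraries and without FBN-ARO-KO+GCI replicate 1, but not with any other library left out. It encodes annexin A2, which organizes membrane and actin and, with S100A10, binds plasminogen. Its level was 20.1 and 21.0 CPM in replicates 1 and 2 of FLOX+GCI, against 15.4 and 8.50 CPM in the same order in FBN-ARO-KO+GCI. The FLOX+GCI libraries nearly coincided, both FBN-ARO-KO+GCI libraries were lower, and replicate 2 of FBN-ARO-KO+GCI was the lowest of all. The group means were 20.5 ± 0.636 and 11.96 ± 4.89 CPM (SD, n = 2 each), and the log2 fold change was -0.77 (SE 0.25, adjusted p = 0.248 by edgeR's quasi-likelihood test). Leaving out FBN-ARO-KO+GCI replicate 2 gave -0.41 and leaving out FBN-ARO-KO+GCI replicate 1 gave -1.27, so the size of the difference depended on which of these libraries was kept.

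S100a10, the gene of the partner protein p11, showed a different distribution. It stood at 15.9 and 31.1 CPM in FLOX+GCI, against 15.7 and 18.0 CPM in FBN-ARO-KO+GCI. FLOX+GCI replicate 2 alone was high, whereas FLOX+GCI replicate 1 lay within the range of the FBN-ARO-KO+GCI libraries, so the groups overlapped. Mean levels were 23.5 ± 10.7 and 16.9 ± 1.56 CPM (SD, n = 2 each), with a log2 fold change of -0.48 (SE 0.28, adjusted p = 0.401, edgeR). Without FLOX+GCI replicate 1 the gene was called at -0.88 (SE 0.15, adjusted p = 0.00729, edgeR), and without FLOX+GCI replicate 2 it stood at 0.077. In the fit without FLOX+GCI replicate 1, S100a10 and S100a16 were the 2 genes of the 10 that were called, against 0.946% of all genes called lower in that fit, and the single FLOX+GCI library was there assumed to vary like the others.

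Because Anxa2 and S100a10 encode the subunits of 1 complex, the ratio of their counts, which needs no scaling between libraries, was also compared. Anxa2 counts divided by S100a10 counts gave 1.26 and 0.675 in FLOX+GCI, against 0.979 and 0.473 in FBN-ARO-KO+GCI. The ratio was lower in replicate 2 than in replicate 1 of both genotypes, and the genotypes overlapped. The mean log2 ratio was -0.12 ± 0.64 in FLOX+GCI and -0.55 ± 0.74 in FBN-ARO-KO+GCI (SD, n = 2 each), and the difference of -0.44 had a two-sided exact permutation p of 0.667, where 0.333 is the smallest p that 2 against 2 libraries allow. With 1 library left out in turn the difference ranged from -0.96 to 0.086. The genes did not keep a fixed ratio across the libraries.

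**Figure D1:**
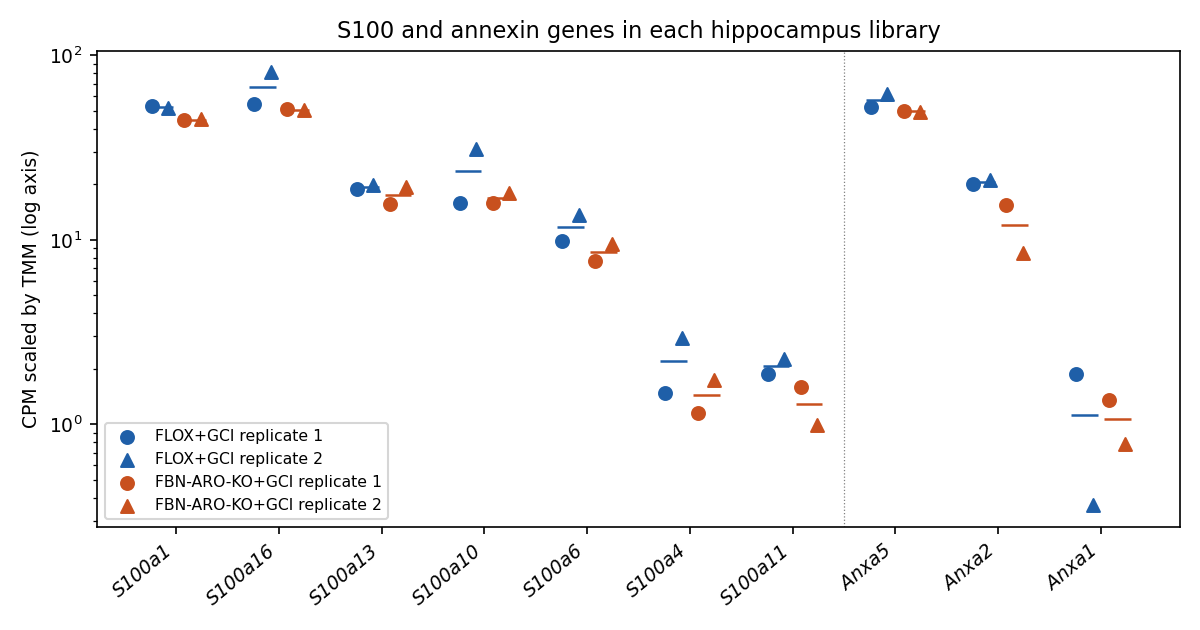
CPM scaled by TMM (log axis) of each of the 10 genes in the 4 hippocampus libraries, with circles for replicate 1, triangles for replicate 2, blue for FLOX+GCI, orange for FBN-ARO-KO+GCI and a horizontal line at each group mean. For 8 of the 10 genes the highest library was FLOX+GCI replicate 2, and for Anxa2 the lowest was FBN-ARO-KO+GCI replicate 2 at 8.50 CPM.

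S100a16 and S100a1 were the other genes with an unadjusted p under 0.05. S100a16, a widely expressed family member, was measured at 54.6 and 80.8 CPM in FLOX+GCI, against 50.9 and 50.5 CPM in FBN-ARO-KO+GCI. Its FBN-ARO-KO+GCI libraries were nearly equal, and FLOX+GCI replicate 1 lay close above them, while FLOX+GCI replicate 2 stood apart. The means were 67.7 ± 18.5 and 50.7 ± 0.239 CPM, with a log2 fold change of -0.42 (SE 0.17, adjusted p = 0.281, edgeR). That difference was -0.67 (adjusted p = 0.00962, edgeR) without FLOX+GCI replicate 1 and -0.11 without FLOX+GCI replicate 2.

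S100a1, known for binding the ryanodine receptor and other calcium-handling proteins, had the smallest standard error of the 10. It measured 53.2 and 51.8 CPM in FLOX+GCI, against 44.6 and 44.9 CPM in FBN-ARO-KO+GCI. The groups did not overlap, and within each group the libraries differed by less than the gap between groups. Means of 52.5 ± 0.927 and 44.8 ± 0.196 CPM corresponded to a log2 fold change of -0.23 (SE 0.08, adjusted p = 0.253, edgeR), which stayed between -0.25 and -0.21 with any 1 library left out. A correction for transcript GC content and length moved it to -0.05.

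S100a6 encodes calcyclin, which binds the calcyclin-binding protein and annexins and is expressed in astrocytes and other glia. Its level was 9.86 and 13.7 CPM in FLOX+GCI, against 7.72 and 9.52 CPM in FBN-ARO-KO+GCI. The groups did not overlap, although FLOX+GCI replicate 1 exceeded FBN-ARO-KO+GCI replicate 2 only slightly. The means were 11.8 ± 2.73 and 8.62 ± 1.27 CPM, and the log2 fold change was -0.45 (SE 0.20, adjusted p = 0.309, edgeR). It was -0.20 without FLOX+GCI replicate 2.

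S100a13 has a role in the release of fibroblast growth factor 1 and interleukin 1α, which lack a signal peptide. It stood at 19.0 and 19.8 CPM in FLOX+GCI, against 15.7 and 19.3 CPM in FBN-ARO-KO+GCI. Only FBN-ARO-KO+GCI replicate 1 was low, and the groups overlapped. The means of 19.4 ± 0.623 and 17.5 ± 2.57 CPM gave a log2 fold change of -0.15 (SE 0.13, adjusted p = 0.574, edgeR), which was -0.01 without FBN-ARO-KO+GCI replicate 1 and 0.040 once corrected for GC content and length.

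S100a4 and S100a11 were detected at low counts. S100a4, a gene of fibroblasts, leukocytes and white matter astrocytes linked to cell motility through nonmuscle myosin, had 37 and 72 counts in FLOX+GCI, against 38 and 51 counts in FBN-ARO-KO+GCI. On the CPM scale these were 1.48 and 2.92 against 1.15 and 1.74, with overlapping groups and FLOX+GCI replicate 2 the highest. The log2 fold change was -0.61 (SE 0.40, adjusted p = 0.450, edgeR), and it was -0.04 without FLOX+GCI replicate 2.

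S100a11, which pairs with annexin A1, had 47 and 56 counts in FLOX+GCI, against 53 and 29 counts in FBN-ARO-KO+GCI. Scaled to CPM, the FLOX+GCI libraries at 1.88 and 2.27 lay above the FBN-ARO-KO+GCI libraries at 1.60 and 0.990, with FBN-ARO-KO+GCI replicate 2 the lowest. The log2 fold change was -0.67 (SE 0.33, adjusted p = 0.346, edgeR), and it was -0.37 without FBN-ARO-KO+GCI replicate 2 and -1.07 without FBN-ARO-KO+GCI replicate 1.

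Anxa5 and Anxa1 completed the annexins. Anxa5, whose protein binds the phosphatidylserine exposed by dying cells, stood at 52.2 and 62.0 CPM in FLOX+GCI, against 50.1 and 49.3 CPM in FBN-ARO-KO+GCI. The groups did not overlap, though FLOX+GCI replicate 1 was close to both FBN-ARO-KO+GCI libraries. Mean levels of 57.1 ± 6.92 and 49.7 ± 0.596 CPM gave a log2 fold change of -0.20 (SE 0.10, adjusted p = 0.354, edgeR), and leaving out FLOX+GCI replicate 2 gave -0.07.

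Anxa1 encodes a mediator of the resolution of inflammation that signals through formyl peptide receptors, and it was the least abundant of the 10. It had 47 and 9 counts in FLOX+GCI, against 45 and 23 counts in FBN-ARO-KO+GCI, or 1.88 and 0.365 CPM against 1.36 and 0.785 CPM. FLOX+GCI held both the highest and the lowest library, so the FBN-ARO-KO+GCI libraries lay within the FLOX+GCI range. The log2 fold change was -0.06 (SE 0.66, adjusted p = 0.971, edgeR). It was 1.55 without FLOX+GCI replicate 1 and -0.80 without FLOX+GCI replicate 2, so these libraries gave no direction for Anxa1.

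**Figure D2:**
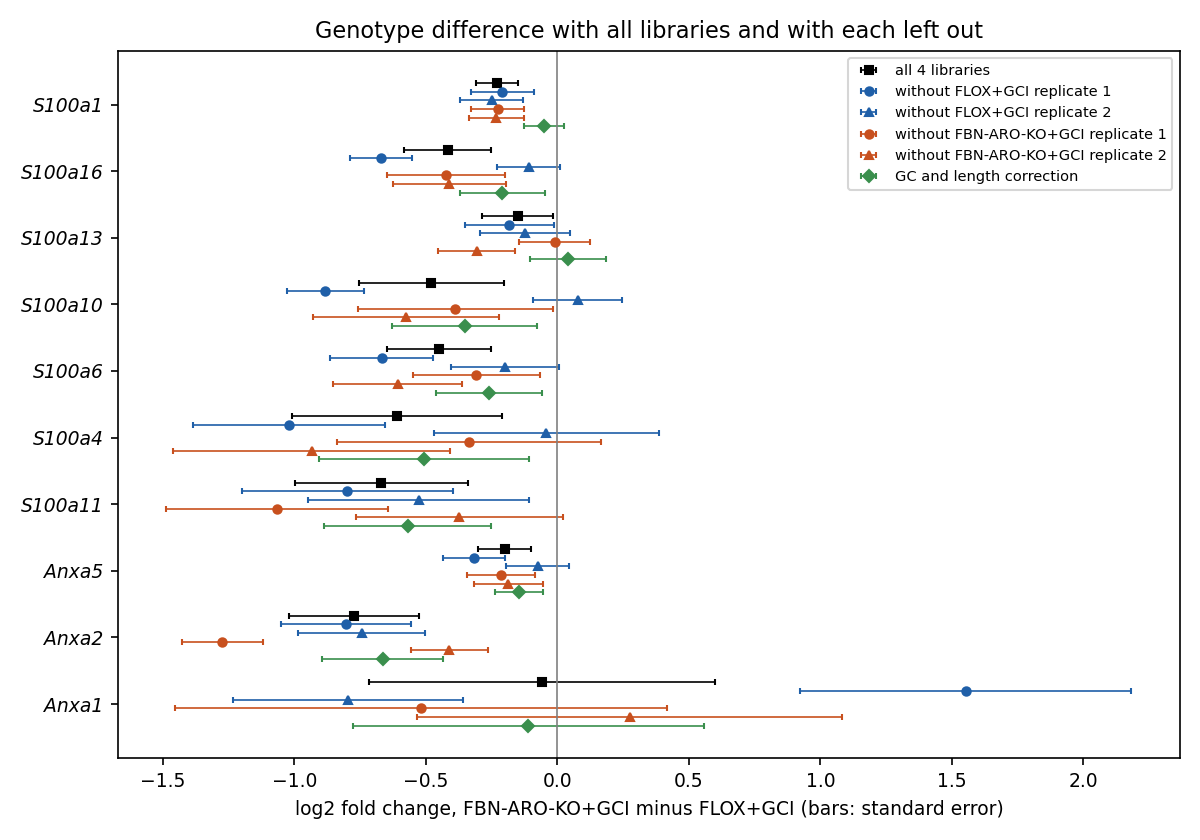
Log2 fold change (FBN-ARO-KO+GCI minus FLOX+GCI) of each gene with its standard error, from all 4 libraries (black), with each library left out in turn (blue and orange) and with a correction for GC content and length (green). S100a10 ranges from -0.88 to 0.077 as the FLOX+GCI libraries are left out, whereas S100a1 stays between -0.25 and -0.21 and is -0.05 with the correction.

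Levels of different genes were compared per length, as mean CPM per kilobase of the longest coding transcript. In FLOX+GCI, S100a1 led at 77.6 ± 1.37 and S100a16 followed at 60.1 ± 16.4. S100a10 at 34.3 ± 15.6, Anxa5 at 34.0 ± 4.13 and S100a13 at 27.1 ± 0.872 formed a middle range. S100a6 at 16.4 ± 3.79 and Anxa2 at 14.2 ± 0.440 came next, and S100a4 at 4.42 ± 2.05, S100a11 at 4.06 ± 0.548 and Anxa1 at 0.669 ± 0.638 were lowest (all SD, n = 2).

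The order by level was not resolved throughout. Over the 4 libraries the ranges of CPM per kilobase overlapped between S100a1 and S100a16, S100a16 and S100a10, S100a10 and Anxa5, S100a6 and Anxa2, and S100a4 and S100a11. They were apart between Anxa5 and S100a13, between S100a13 and S100a6, between Anxa2 and S100a4, and between S100a11 and Anxa1. In FBN-ARO-KO+GCI the mean CPM per kilobase ran from 66.2 ± 0.290 for S100a1 to 0.640 ± 0.242 for Anxa1.

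All 7 of the S100 genes lie on chromosome 3 of mm9, the build of the counts, in groups of neighbors. S100a1 (chr3:90314956-90318314, minus strand) and S100a13 (chr3:90318357-90328503, plus strand) start 42 bases apart and are read away from each other. S100a16 (chr3:90341176-90347073), S100a4 (chr3:90407692-90409967) and S100a6 (chr3:90416816-90418336) follow on the plus strand. S100a11 (chr3:93324410-93330209) and S100a10 (chr3:93359002-93368565) are separated by 28792 bases.

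The annexin genes are dispersed, with Anxa5 at chr3:36347847-36374765 (minus strand), Anxa2 at chr9:69301427-69339602 (plus strand) and Anxa1 at chr19:20447918-20465434 (minus strand). Anxa2 overlaps the noncoding gene Gm16144 on the opposite strand, and whether counting used strand is not given in the sources used here, so their reads cannot be told apart. Pseudogene copies of S100a11 and Anxa2 (S100a11-ps and Gm41080) are annotated in RefSeq, and reads that aligned equally well to such copies were not counted. Of these neighbors, S100a16, S100a4 and S100a6 were each above the mean of all libraries in FLOX+GCI replicate 2 and below it in the other libraries. The other pairs of neighbors were less alike. S100a1 was high in both FLOX+GCI libraries and S100a13 was low only in FBN-ARO-KO+GCI replicate 1. S100a10 was high only in FLOX+GCI replicate 2. S100a11 was also highest there, at 0.43 relative to the mean of all libraries on the log2 CPM scale, but it was low mainly in FBN-ARO-KO+GCI replicate 2.

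Promoter sequences were taken from RefSeq for GRCm38.p6, a later build than that of the counts, as the 250 bases before each annotated start. Of the 10 genes, 9 matched, with 10 windows because S100a16 has 2 starts. S100a10 had no entry. The stretch between S100a1 and S100a13 is shown first, because both windows contain it (chr3:90514331-90514434, 104 bases, plus strand, so that S100a13 is read onward from its right end and S100a1 from its left). The RefSeq starts lie farther apart than those of the mm9 annotation.
S100a1 and S100a13, shared: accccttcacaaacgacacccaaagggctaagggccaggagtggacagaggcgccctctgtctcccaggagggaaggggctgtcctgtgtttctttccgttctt

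Both strands of each window were searched for TGANTCA, the core of sites of AP-1, a transcription factor of injury responses built from Fos and Jun proteins. A match was present in 3 windows, those of Anxa2, S100a11 and the downstream start of S100a16, against 6.75% of the 32851 mouse promoter windows searched. These windows are shown with the matches in capitals, to place each match relative to the start. The groups did not overlap for these genes, nor for S100a1, S100a6 and Anxa5, whose windows held no match. Both FBN-ARO-KO+GCI libraries lay below both FLOX+GCI libraries in 25.8% of all genes tested. The groups overlapped for S100a4, S100a13 and Anxa1, whose windows held no match either, and for S100a10, which had no window. A relation between matches and levels was not tested. The 3 windows with a match lie at chr9:69453433-69453682, chr3:93520246-93520495 and chr3:90540896-90541145, all on the plus strand.
Anxa2: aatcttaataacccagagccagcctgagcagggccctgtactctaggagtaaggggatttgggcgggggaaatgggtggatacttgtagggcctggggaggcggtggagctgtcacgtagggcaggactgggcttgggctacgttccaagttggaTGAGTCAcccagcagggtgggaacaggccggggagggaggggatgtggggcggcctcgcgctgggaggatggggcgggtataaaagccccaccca
S100a11: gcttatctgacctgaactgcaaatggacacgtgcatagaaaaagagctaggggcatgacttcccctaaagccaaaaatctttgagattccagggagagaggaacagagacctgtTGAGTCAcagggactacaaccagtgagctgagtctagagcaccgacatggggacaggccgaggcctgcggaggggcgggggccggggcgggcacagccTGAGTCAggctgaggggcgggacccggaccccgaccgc
S100a16, downstream start: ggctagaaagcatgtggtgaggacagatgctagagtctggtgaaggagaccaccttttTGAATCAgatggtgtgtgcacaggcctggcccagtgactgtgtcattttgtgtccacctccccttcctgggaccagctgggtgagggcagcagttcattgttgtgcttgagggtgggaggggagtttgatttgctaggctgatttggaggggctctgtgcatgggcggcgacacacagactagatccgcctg

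The match in Anxa2 began 95 bases before the start, those in S100a11 136 and 38 bases before it, and that in S100a16 192 bases before it. None of the 4 matches overlapped another motif searched. TATAAA was present in the windows of S100a4, Anxa2 and Anxa1, beginning 31, 17 and 32 bases before the start, against 12.4% of all windows. GGGCGG, the GC box, was present in 3 windows, those of Anxa2, S100a11 and the downstream start of S100a16, against 32.7% of all windows. TTCNNNGAA, a STAT core, was in 0 of the 10 windows and in 7.02% of all. The full palindromic estrogen response element (GGTCA, 3 bases, TGACC) was in 0 of the 10 and in 0.0639% of all. A match is a run of letters, and binding was not measured here.

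The remaining members of both families were less uniform. Of 19 other S100 and annexin genes, 16 had a count and 8 passed the filter on low counts, of which 5 were lower and 3 higher, with a median log2 fold change of -0.29 and 0 called by edgeR. S100b, the astrocyte calcium-binding protein and the family member best known in brain, was at 129 and 114 CPM in FLOX+GCI, against 114 and 132 CPM in FBN-ARO-KO+GCI. Its groups overlapped fully, with a log2 fold change of 0.02 (SE 0.10, adjusted p = 0.940, edgeR). S100b overlaps the protein-coding gene Dip2a on the opposite strand, and without the strand setting their reads cannot be told apart.

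The other 9 S100 genes fell below the filter on low counts and were left out of the test. S100a8 and S100a9, which together form the neutrophil protein calprotectin, had 0, 5, 3 and 16 counts and 7, 2, 5 and 15 counts, with the FLOX+GCI pair first in each. The highest count of each was in FBN-ARO-KO+GCI replicate 2, but the groups overlapped and these few counts gave no direction.

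Among the other annexins, 7 of 9 were tested, 5 lower and 2 higher, with a median log2 fold change of -0.32 and 0 genes at an unadjusted p under 0.05. Anxa11, an RNA granule tether, was at 37.0 and 50.3 CPM in FLOX+GCI, against 36.6 and 33.5 CPM in FBN-ARO-KO+GCI, with a log2 fold change of -0.32 (SE 0.15, adjusted p = 0.328, edgeR). As for S100a10 and S100a16, FLOX+GCI replicate 2 was the high library. Log2 fold changes were -0.67 for Anxa9, -0.33 for Anxa3, -0.26 for Anxa4, 0.09 for Anxa7 and 0.01 for Anxa6 (SE 0.07, adjusted p = 0.932, edgeR), the most abundant of the tested annexins in CPM per kilobase. Anxa9 overlaps Fam63a on the opposite strand, and its counts of 13 to 20 are uncertain for that reason.

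**Figure D3:**
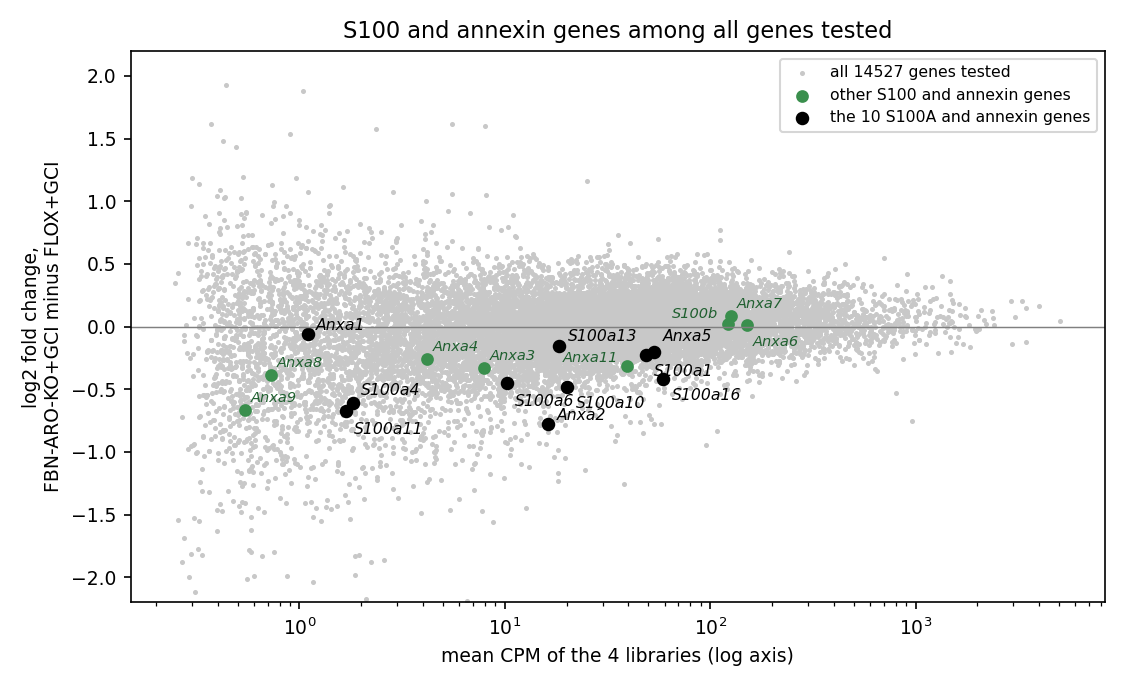
Log2 fold change (FBN-ARO-KO+GCI minus FLOX+GCI) against mean CPM of the 4 libraries (log axis) for the 14527 genes tested (grey, 10 of them beyond the vertical axis), the 10 S100A and annexin genes (black) and the 8 other tested family members (green). All 10 black points lie below 0, and S100b, Anxa6 and Anxa7 lie close to it.

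Genes of proteins that bind S100 proteins or annexins, or act as their receptors, did not share a direction. Of 22 listed genes, 21 were in the files and 16 were tested, 8 lower and 8 higher, with a median log2 fold change of -0.01 and 0 called. Those with the smallest p were Cacybp, the calcyclin-binding protein that partners S100A6, at 0.30 (SE 0.10, adjusted p = 0.248, edgeR), the helicase-like factor Hltf at 0.27 (SE 0.11, adjusted p = 0.273), and Sugt1, a cochaperone partner of S100A6, at 0.26 (SE 0.10, adjusted p = 0.282). Kcnk3, a potassium channel carried to the membrane with S100A10, was at -0.28 (SE 0.12, adjusted p = 0.300), and Dysf, a membrane repair protein that binds annexins, was at -0.53 (SE 0.23, adjusted p = 0.309).

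Ahnak, the large scaffold that the annexin A2 and S100A10 complex binds, had a log2 fold change of 0.01 (SE 0.18) with overlapping groups. Whether Ahnak differed from Anxa2 or S100a10 in this was not tested. Fpr1, Fpr2 and Fpr3, the mouse formyl peptide receptors through which annexin A1 acts, had at most 3 counts in any library. Plg, the gene of plasminogen, had 0, 2, 0 and 0 counts. At this depth a genotype difference in these genes was not detectable.

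The pattern over single libraries differed between the 10 genes, and for some of them markers of other cell types were high or low in the same library. S100a4, S100a10, S100a16 and S100a6 were highest in FLOX+GCI replicate 2, at 0.68, 0.62, 0.45 and 0.43 above the mean of all libraries on the log2 CPM scale. In all, 8 of the 10 genes were highest in that library, S100a11 at 0.43 among them, as were 4211 of the 14527 genes tested. The summed level of 7 reactive astrocyte markers was 695 and 1463 CPM in FLOX+GCI, against 850 and 862 CPM in FBN-ARO-KO+GCI, with 6 of the 7 highest in FLOX+GCI replicate 2 and none at 0 in all libraries. The markers did not all behave alike, and of the 6 tested 5 were lower and 1 higher. Vim, the vimentin gene, was at 66.5 and 72.5 CPM in FLOX+GCI, against 54.8 and 44.1 CPM in FBN-ARO-KO+GCI. Its groups did not overlap (log2 fold change -0.49, SE 0.12, adjusted p = 0.238, edgeR). Cd44 was at -1.56 (SE 0.59, adjusted p = 0.270, edgeR) with overlapping groups. Timp1, a metalloprotease inhibitor, had 5 and 203 counts in FLOX+GCI, against 5 and 4 counts in FBN-ARO-KO+GCI. Lcn2, an iron-carrier protein of inflammation, was instead higher in both FBN-ARO-KO+GCI libraries, at 2.35 and 4.95 CPM in FLOX+GCI, against 8.18 and 5.63 CPM (log2 fold change 0.92, SE 0.35, adjusted p = 0.268, edgeR). FLOX+GCI replicate 1 had the lowest sum of these markers, so by the sum the FLOX+GCI libraries lay on either side of the FBN-ARO-KO+GCI libraries. Gfap, which made up most of the sum, was at 396 and 900 CPM in FLOX+GCI, against 502 and 560 CPM in FBN-ARO-KO+GCI. Serpina3n and Osmr also had the FLOX+GCI libraries on either side, whereas Vim, Cd44, Timp1 and Lcn2 did not. The likeness was partial, since FLOX+GCI replicate 1 had the lowest marker sum but was the lowest library for 0 of the 10 genes. The part of these markers in the differences of the 4 genes was not tested.

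Anxa2 and S100a11 were instead lowest in FBN-ARO-KO+GCI replicate 2, at -0.93 and -0.77 relative to the mean of all libraries on the log2 CPM scale. The summed level of 7 meningeal fibroblast markers, collagen genes among them, was 356 and 182 CPM in FLOX+GCI, against 213 and 118 CPM in FBN-ARO-KO+GCI, with 6 of the 7 lowest in FBN-ARO-KO+GCI replicate 2 and none at 0 in all libraries. For 6 endothelial and mural markers the sums were 266 and 174 CPM against 209 and 138 CPM, with 5 of the 6 lowest in FBN-ARO-KO+GCI replicate 2. Both sums were highest in FLOX+GCI replicate 1, where Anxa1 also had its highest level. The likeness was partial, since Anxa2 and S100a11 were highest in FLOX+GCI replicate 2, where both sums were below the mean of all libraries, and Anxa1 was lowest there. The amount of membrane and vessel in each sample was not measured, and the part of these markers in the levels of Anxa2, S100a11 and Anxa1 was not tested.

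Markers of other cells were also summed. For 7 neuron markers the sums were 11505 and 11375 CPM in FLOX+GCI, against 11688 and 12299 CPM in FBN-ARO-KO+GCI. Of these markers, 3 were lower and 4 higher. The sum of 7 astrocyte markers was 5406 and 5002 CPM in FLOX+GCI, against 5526 and 6095 CPM in FBN-ARO-KO+GCI. Slc1a2, the glutamate transporter, made up most of it, 5 of the 7 markers overlapped between groups, and Aldh1l1, a folate enzyme, was lower in both FBN-ARO-KO+GCI libraries (log2 fold change -0.30, SE 0.08, adjusted p = 0.238, edgeR). For 6 microglia markers the sums were 371 and 341 CPM against 344 and 395 CPM, with overlapping groups. Markers of infiltrating leukocytes summed to 14.1 and 11.5 CPM against 10.02 and 9.83 CPM. Most of the sum was Lyz2, the lysozyme gene, which was lower in both FBN-ARO-KO+GCI libraries (log2 fold change -0.64, SE 0.20, adjusted p = 0.245, edgeR). Of the 8 markers only Lyz2 and Ptprc were tested, and Ptprc was at 0.07. The others had few counts. S100a8, S100a9 and Cd3e had higher means in FBN-ARO-KO+GCI, whereas Ccr2, Ly6c2 and Plac8 had lower ones. Oligodendrocyte markers summed to 3886 and 4400 CPM against 4453 and 4579 CPM. Choroid plexus and ependyma markers summed to 71.7 and 58.0 CPM against 52.0 and 58.2 CPM. Of these 6 markers, 2 were lower and 4 higher, with a median log2 fold change of 0.15. Ttr, the transthyretin gene, was at -0.98 (SE 0.25, adjusted p = 0.238, edgeR) with no overlap between groups. Foxj1 at 0.23 and Clic6 at 0.24 were instead higher in both FBN-ARO-KO+GCI libraries. Of the erythrocyte markers only Alas2 had counts, at 4.15 and 3.08 CPM against 1.84 and 2.29 CPM, while Hba-a1, Hba-a2 and Hbb-b1 were at 0. Hbb-bs and Hbb-bt were not among the symbols counted. Reads that aligned equally well to several places were not counted, so these hemoglobin values do not show that blood RNA was absent. The part of these cells in the results was not tested.

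**Figure D4:**
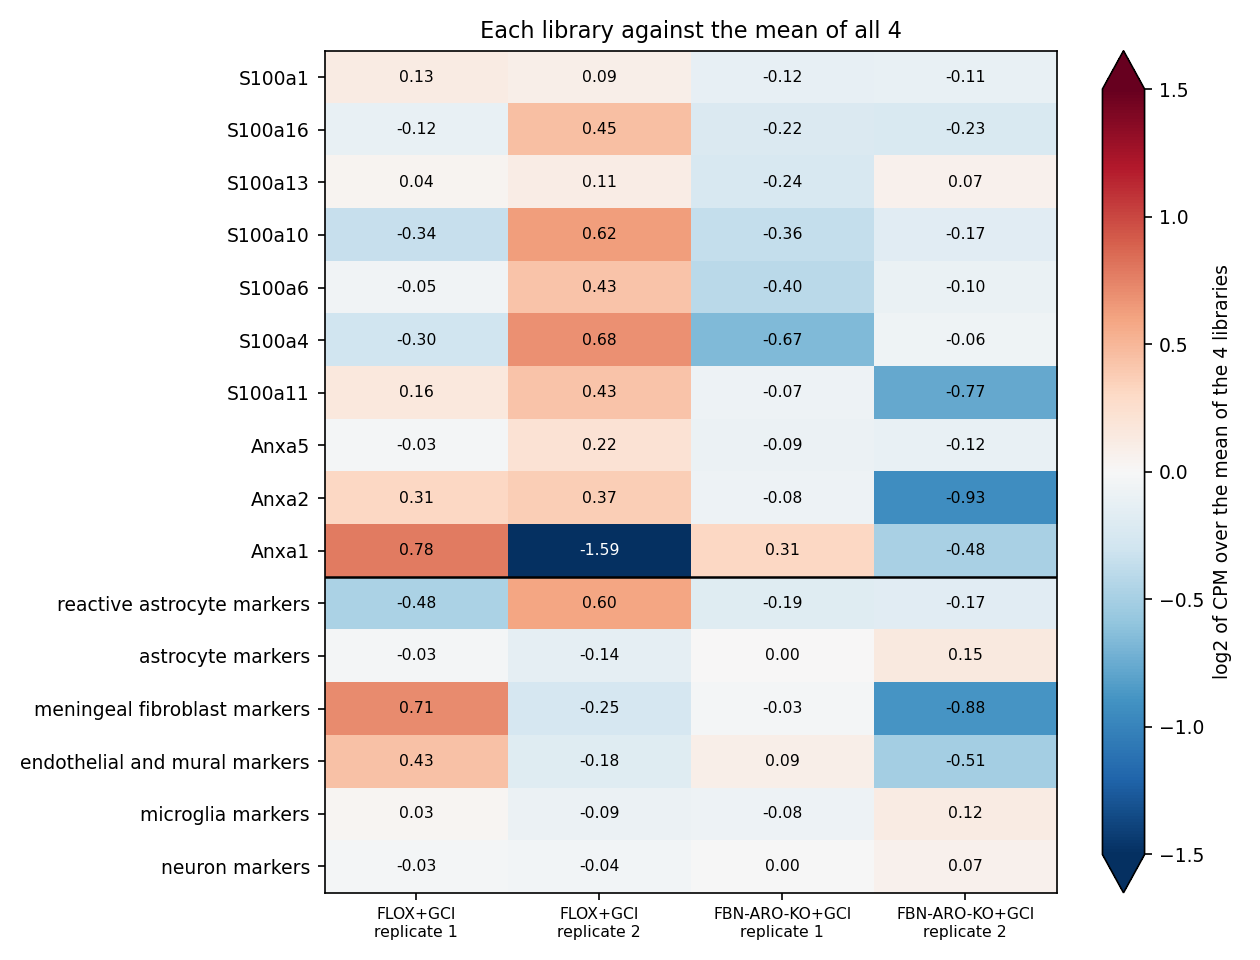
Level of each of the 10 genes and the summed level of 6 marker lists in each library, as log2 of CPM over the mean of the 4 libraries (red above, blue below, color scale ending at 1.5 on each side, with the values printed). FLOX+GCI replicate 2 is high for S100a10 (0.62) and for the reactive astrocyte markers (0.60), and FBN-ARO-KO+GCI replicate 2 is low for Anxa2 (-0.93) and for the meningeal fibroblast markers (-0.88). The rows do not match throughout, and in FLOX+GCI replicate 2 Anxa2 is at 0.37 but the meningeal fibroblast markers are at -0.25.

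The 10 genes have short transcripts, with a median length of 717 bases against 3095.5 for all genes tested, and a median GC content of 52.2% against 50.6%. A correction that takes out the trend of each library with GC content and length gave a median log2 fold change of -0.23 for the 10 genes in place of -0.43. With it 9 of the 10 were lower, against 42.8% of all genes, and Anxa2, at -0.66, was the 1 gene of the 10 with an unadjusted p under 0.05 and lower, against 3.48% of all genes. S100a16 moved from -0.42 to -0.21, and S100a6 from -0.45 to -0.26.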

How the data were processed

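Hippocampal RNA of 4 libraries was sequenced as 50 bp single-end reads. According to the labels and submitters' notes, the authors aligned reads to mm9 with TopHat2 2.0.8b and counted them per gene with HTSeq, and they deposited raw counts without normalization. The strand setting and annotation release are not given in the sources used here. The 5 counters of unassigned reads (among them reads in no gene, 12.3% to 13.7% of uniquely aligned reads) were left out.

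Genotypes were compared over all genes with edgeR 4.0.16 in R 4.3.3 (TMM, filterByExpr with a minimum count of 10, quasi-likelihood test, Benjamini-Hochberg adjustment at 0.05), on 14527 genes. The SE was obtained by dividing the log2 fold change by √F. Alternatives were DESeq2 1.42.0, other scalings and filters, a likelihood ratio test, a block for replicate number, a spline offset for GC content and length, and each library left out. The procedure was tested on simulated data. Transcript lengths are from GENCODE M1.

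The members and gene lists were chosen with earlier results of these data known. All members are named, and, of the other S100, other annexin and partner lists, the 5 tested genes with the smallest p, plus S100b and Anxa6. Ahnak, Plg, the formyl peptide receptors, S100a8, S100a9 and single cell type markers were named outside this rule. Libraries within a group differed beyond sampling noise (chi-square per degree of freedom 10.9 and 12.9).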

Additional observations from a re-analysis of the deposited data

How the results depend on the processing

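Of 127 recomputed log2 fold changes of single members, 117 kept their direction and side of the threshold (7 of them, under DESeq2, had no adjusted p to compare), 7 changed sign and 3 became significant. Libraries with the same replicate number share only that number (correlation of their deviations 0.13, over 2 pairs). With the replicate block, 184 genes (142 lower, 1.27% of those tested) were called, against 2 without it, and 1 member was among them, Anxa2 at -0.82 (SE 0.18, adjusted p = 0.0349, edgeR), while Anxa1 was at 0.085. Over all alternatives the adjusted p of Anxa2 ranged from 0.0349 to 0.844. DESeq2, whose filter left an adjusted p for 5796 genes and 3 members, called 285 genes and 0 members, and the likelihood ratio test called 294 genes and 0 members. All 10 members were lower under DESeq2, its size factors in edgeR and library totals. With the GC and length correction the members lower at an unadjusted p under 0.05 numbered 1, the median was -0.23 and S100a13 was at 0.040. With the correction and the replicate block together these were 1, -0.22 and 0.030, with Anxa1 at 0.028, and Anxa2 was no longer called (-0.71, adjusted p = 0.309, edgeR). The cause of these shifts was not tested.

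With each library left out in turn, the members called ranged from 0 to 2, those lower at an unadjusted p under 0.05 from 1 to 6 (6, 1, 2 and 2 members, against 7.64%, 7.06%, 8.25% and 3.17% of all genes, in the order given below) and the median from -0.67 to -0.16. The largest counts and the most negative median came without FLOX+GCI replicate 1. S100a10 ranged from -0.88 to 0.077 and Anxa1 from -0.80 to 1.55. All genes called numbered 193, 127, 0 and 0 without FLOX+GCI replicates 1 and 2 and FBN-ARO-KO+GCI replicates 1 and 2, with 2772 and 831 at an unadjusted p under 0.05 in the fits with 0 calls. A minimum mean of 50 counts left 7 members to test. With 9 to 56 counts a library, Anxa1 and S100a11 carry sizeable counting error. The 47 and 9 counts of Anxa1 in the FLOX+GCI libraries, which had similar totals, also show spread between libraries.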
